A study of Mus musculus with 6 samples.

Results

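The replication-dependent core histone genes are the clustered genes for H2A, H2B, H3 and H4. In the nucleosome, a pair of each of these proteins is wrapped by DNA. Members were chosen by name: a probe set, which is a group of array probes read as one value, was a member when every gene symbol the platform gives it was H2ac, H2bc, H3c or H4c with a number, or the older equivalent. The platform used the newer names, and 36 of 34760 probe sets met the rule, with 4 for H2A, 9 for H2B, 12 for H3 and 11 for H4. They named 37 different genes. A single gene was named in 22 of them and several genes in 14, because copies of these genes are nearly identical and share probes. A joint probe set therefore cannot say which of its genes changed.

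RNA was measured in whole fetal liver of FVB/NJ mouse embryos at embryonic day 13.5, from matings of Klf1 +/- mice. There were 3 Klf1-/- embryos and 3 wildtype embryos, each on its own array. Klf1 is an erythroid zinc finger transcription factor, and the labels do not say which part of the gene is missing in Klf1-/- embryos. The deletion was in the whole embryo as far as the labels tell, so every cell of the liver carried it. The comparison asks how the levels of these histone transcripts differ between Klf1-/- and wildtype livers.

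The transcripts of these genes are made mainly in S phase, when new DNA has to be packed. They end in a stem-loop and not in a poly(A) tail, and the stem-loop binding protein Slbp takes part in their processing, export and translation. In the fetal liver most cells are dividing red cell precursors, so these transcripts are abundant there. Replacement variants such as H3.3 and H2A.Z are made outside S phase too, from genes elsewhere with ordinary polyadenylated transcripts. The labels name the Affymetrix IVT Express kit for labelling and do not name its primer, so how fully transcripts without a tail were labelled was not tested.

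Values are log2 intensities, changes are Klf1-/- minus wildtype on that scale, and the number after ± beside a change is the standard error. A probe set was called when limma's adjusted p, with Benjamini-Hochberg adjustment over all 34760 probe sets, was under 0.05. With 3 arrays a group, the smallest p an exact permutation test can give is 0.10, and no such test was run. The Klf1 probe set read 9.05, 9.38 and 9.12 in Klf1-/- livers, against 10.59, 10.58 and 10.76 in wildtype livers, a change of -1.46 ± 0.11 (limma adjusted p = 0.000381). Its signal in Klf1-/- livers may come from outside the missing part. Array medians over all probe sets lay between 6.71 and 6.76 in Klf1-/- livers and between 6.71 and 6.78 in wildtype livers. Of the 8 erythroid markers measured, 6 were called lower and 0 higher, and their summed intensity was 26679 to 28862 in Klf1-/- livers and 50007 to 54361 in wildtype livers. The 9 hepatoblast markers, with 0 called and 2 lower at an unadjusted p under 0.05, summed to 56528 to 60142 in Klf1-/- livers and 58264 to 70072 in wildtype livers, which fits the labelled tissue. In whole tissue, fewer cells of a type and less RNA per cell cannot be told apart.

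Core histone probe sets mostly read slightly lower in Klf1-/- livers, and few of them passed the test. Of the 36, 2 were called lower, or 5.56%, where 4.52% of all probe sets were called lower. None of the 36 was called higher, where 5.7% of all probe sets were. The share of members called lower thus lay near the background of the array. In either direction 10.2% of all probe sets were called, against 5.56% of the members. At an unadjusted p under 0.05, 13 members were lower, or 36.1% against 12.2% of all probe sets, and 0 were higher, where 14.3% of all probe sets were. The change was negative in 33 of 36, and its median was -0.17, a fold of 0.889, where the median of all probe sets was -0.01. The Klf1-/- and wildtype arrays did not overlap in 22 of 36 members, all lower in Klf1-/-, which is 61.1% where 15.9% of all probe sets were apart in that direction. In 0 members were the groups apart in the higher direction, which held for 16.9% of all probe sets. Joint sets of one class share probes and genes, so the 36 are not independent of one another.

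**Figure D1:**
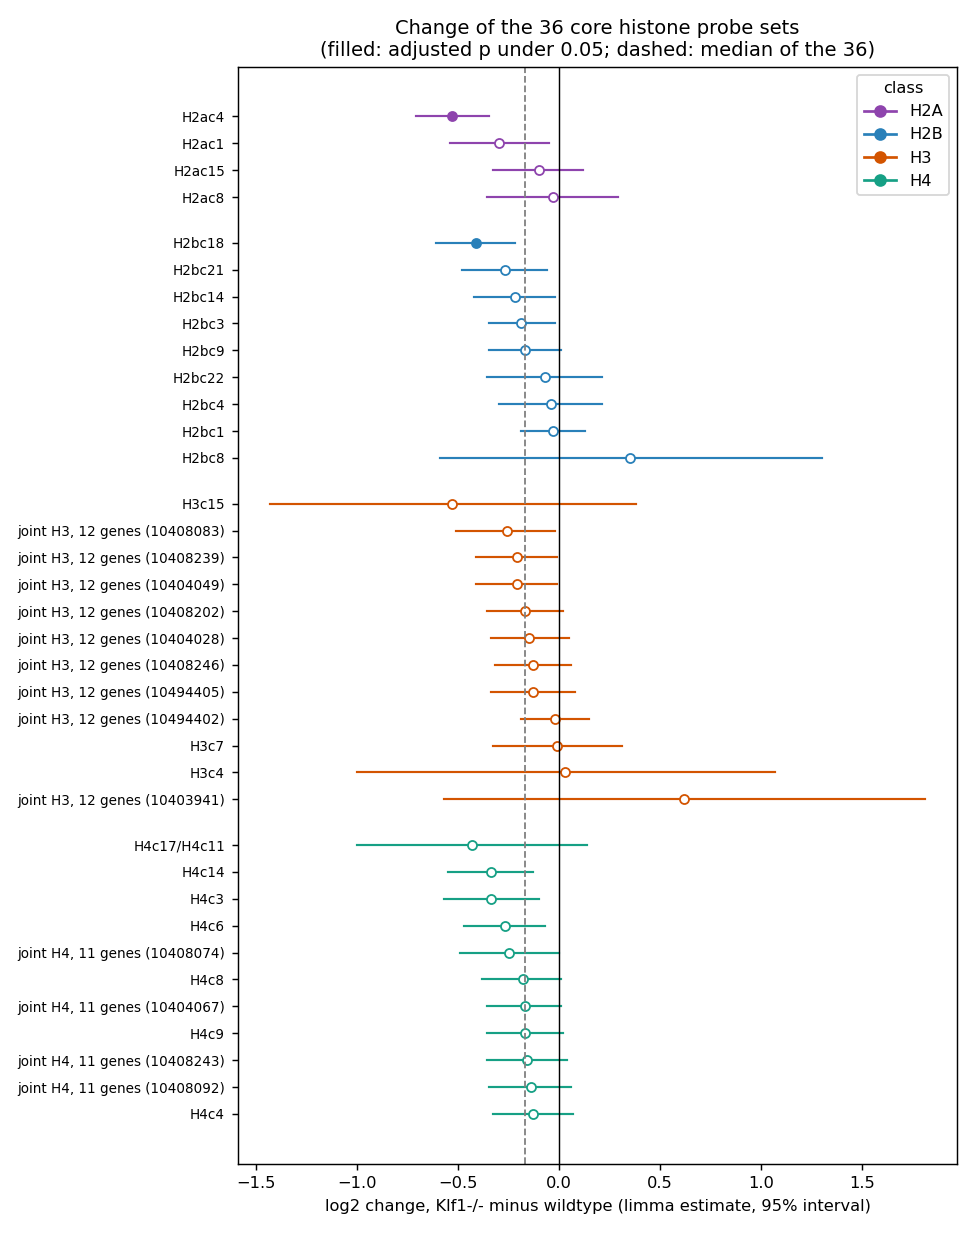
Change of each core histone probe set in log2 units, Klf1-/- minus wildtype, with the 95% interval of the limma fit, grouped by class. Filled points are the 2 called sets, H2ac4 and H2bc18; the dashed line is the median of the 36 sets at -0.17, and the wide intervals belong to H2bc8, H3c15, H3c4, 1 dim joint H3 set and the H4c17/H4c11 set.

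Upstream sequences are shown for 4 members whose windows overlap no annotated gene: H2ac4 and H2bc18, the called members, and H2bc14 and H4c4, which are among the brightest of their classes and were not called. Each is the 200 bases before the gene's start in RefSeq, build GRCm38.p6, plus strand, at chr13:23750888-23751087 for H2ac4, chr3:96269500-96269699 for H2bc18, chr13:21721844-21722043 for H2bc14 and chr13:23581368-23581567 for H4c4. Capitals mark matches, on either strand, to the motifs described after them.
H2ac4: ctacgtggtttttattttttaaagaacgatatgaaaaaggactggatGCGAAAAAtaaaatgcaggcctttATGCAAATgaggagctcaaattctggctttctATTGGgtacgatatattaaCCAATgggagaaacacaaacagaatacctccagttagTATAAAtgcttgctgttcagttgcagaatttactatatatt
H2bc18: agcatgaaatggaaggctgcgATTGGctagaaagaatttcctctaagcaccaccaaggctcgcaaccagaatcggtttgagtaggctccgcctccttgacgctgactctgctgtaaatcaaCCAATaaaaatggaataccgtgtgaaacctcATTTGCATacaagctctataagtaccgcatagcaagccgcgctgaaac
H2bc14: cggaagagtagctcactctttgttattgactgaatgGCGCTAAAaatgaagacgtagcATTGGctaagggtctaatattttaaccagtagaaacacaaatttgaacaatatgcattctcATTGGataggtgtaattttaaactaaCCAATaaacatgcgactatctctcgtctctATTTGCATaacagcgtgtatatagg
H4c4: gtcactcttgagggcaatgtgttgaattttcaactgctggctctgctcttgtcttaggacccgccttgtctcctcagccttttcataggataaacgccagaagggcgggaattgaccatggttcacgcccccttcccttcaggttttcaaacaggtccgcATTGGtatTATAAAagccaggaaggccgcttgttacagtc

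The motifs searched were TATAAA (the TATA box), CCAAT, the octamer ATGCAAAT (ATTTGCAT on the other strand), which Pou2f1 and related factors bind, the E2F-like TTTNNCGC and the CACC-like CCNCNCCC, close to the element Klf1 binds. RefSeq held the window for 32 of the 37 member genes. Matches of different motifs did not overlap each other in these windows. H2ac4 held the octamer, 2 CCAAT matches, TATAAA and 1 E2F-like match. H2bc18 held the octamer and 2 CCAAT matches, H2bc14 the octamer, 3 CCAAT matches and 1 E2F-like match, and H4c4 held 1 CCAAT match and TATAAA. None of these 4 windows held the CACC-like letters.

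Over the 32 windows, CCAAT was found in 68.8% and TATAAA in 46.9%, where 29.3% and 9.96% of all 32851 RefSeq promoters of the same length held them. The octamer was in 25% of member windows and in 1.38% of all promoters. All of its 8 members were H2A or H2B genes, 3 of 4 and 5 of 7, and 0 of 10 H3 and 0 of 11 H4 windows held it. E2F-like letters were in 15.6% of member windows and 3.53% of all promoters. The CACC-like letters were in 12 of 32 member windows, or 37.5%, and in 42.6% of all promoters; these were 9 of 11 H4, 3 of 10 H3 and 0 of 11 H2A or H2B windows. The windows of H2ac1 and H2bc1 share 120 bases and those of H2ac8 and H2bc8 share 179, so these pairs are not separate counts. A match says only that these letters are there.

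H2A, which pairs with H2B on the outer part of the nucleosome, had 4 single-gene probe sets, all with a negative change and a median of -0.20, which was -0.12 without wildtype replicate 3. H2ac4 read 10.16, 10.26 and 10.13 in Klf1-/- livers, against 10.75, 10.66 and 10.72 in wildtype livers. Every Klf1-/- array lay below every wildtype array, by 0.40 or more. H2ac4 fell by 0.53 ± 0.07 (95% interval -0.71 to -0.35, a fold of 0.693), and its limma adjusted p of 0.0058 was the smallest of all members. It was still called with any 1 array left out, with limma adjusted p between 0.0193 and 0.0342. A joint set outside the members, which names H2ac4 among many H2A genes, differed by 0.30 with groups apart in the higher direction. That set was not called (limma adjusted p = 0.127).

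H2ac15, the brightest H2A set, read 13.02, 13.23 and 13.24 in Klf1-/- livers, against 13.21, 13.21 and 13.38 in wildtype livers. Its groups overlapped, and the change of -0.10 was not called (95% interval -0.33 to 0.12, limma adjusted p = 0.538). That interval and the one of H2ac4 do not overlap, but the difference between the 2 genes was not tested. H2ac1, a testis H2A gene, read 8.49, 8.48 and 8.50 in Klf1-/- livers, against 8.68, 8.67 and 9.0 in wildtype livers. Its groups were apart, and its change of -0.30 was not called (limma adjusted p = 0.128). H2ac8, at a mean level of 6.16, differed by -0.03.

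H2B, the partner of H2A, had 9 single-gene probe sets with a median change of -0.17, of which 8 were negative and 1, H2bc18, was called. H2bc18 read 10.58, 10.63 and 10.68 in Klf1-/- livers, against 10.96, 11.17 and 11.01 in wildtype livers. The groups were apart by 0.28. H2bc18 fell by 0.41 ± 0.08 (95% interval -0.61 to -0.22, a fold of 0.751, limma adjusted p = 0.0238). The call was lost without Klf1-/- replicate 1, 2 or 3 (limma adjusted p = 0.0715, 0.085 and 0.0702) and without wildtype replicate 2 (0.0701), while the change stayed between -0.46 and -0.35.

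H2bc14, the brightest H2B set, read 12.18, 12.34 and 12.32 in Klf1-/- livers, against 12.39, 12.53 and 12.58 in wildtype livers. H2bc3 read 11.58, 11.68 and 11.68 in Klf1-/- livers, against 11.82, 11.85 and 11.84 in wildtype livers. In both, all Klf1-/- arrays lay below all wildtype arrays, and neither was called, with changes of -0.22 ± 0.09 and -0.19 ± 0.07 (limma adjusted p = 0.163 and 0.147). H2bc21 at -0.27 and H2bc9 at -0.17 were also apart and not called (limma adjusted p = 0.111 and 0.218). H2bc22, H2bc4 and the testis gene H2bc1 differed by -0.07, -0.04 and -0.03 and overlapped. H2bc8 differed by 0.35, with its wildtype arrays far apart.

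**Figure D2:**
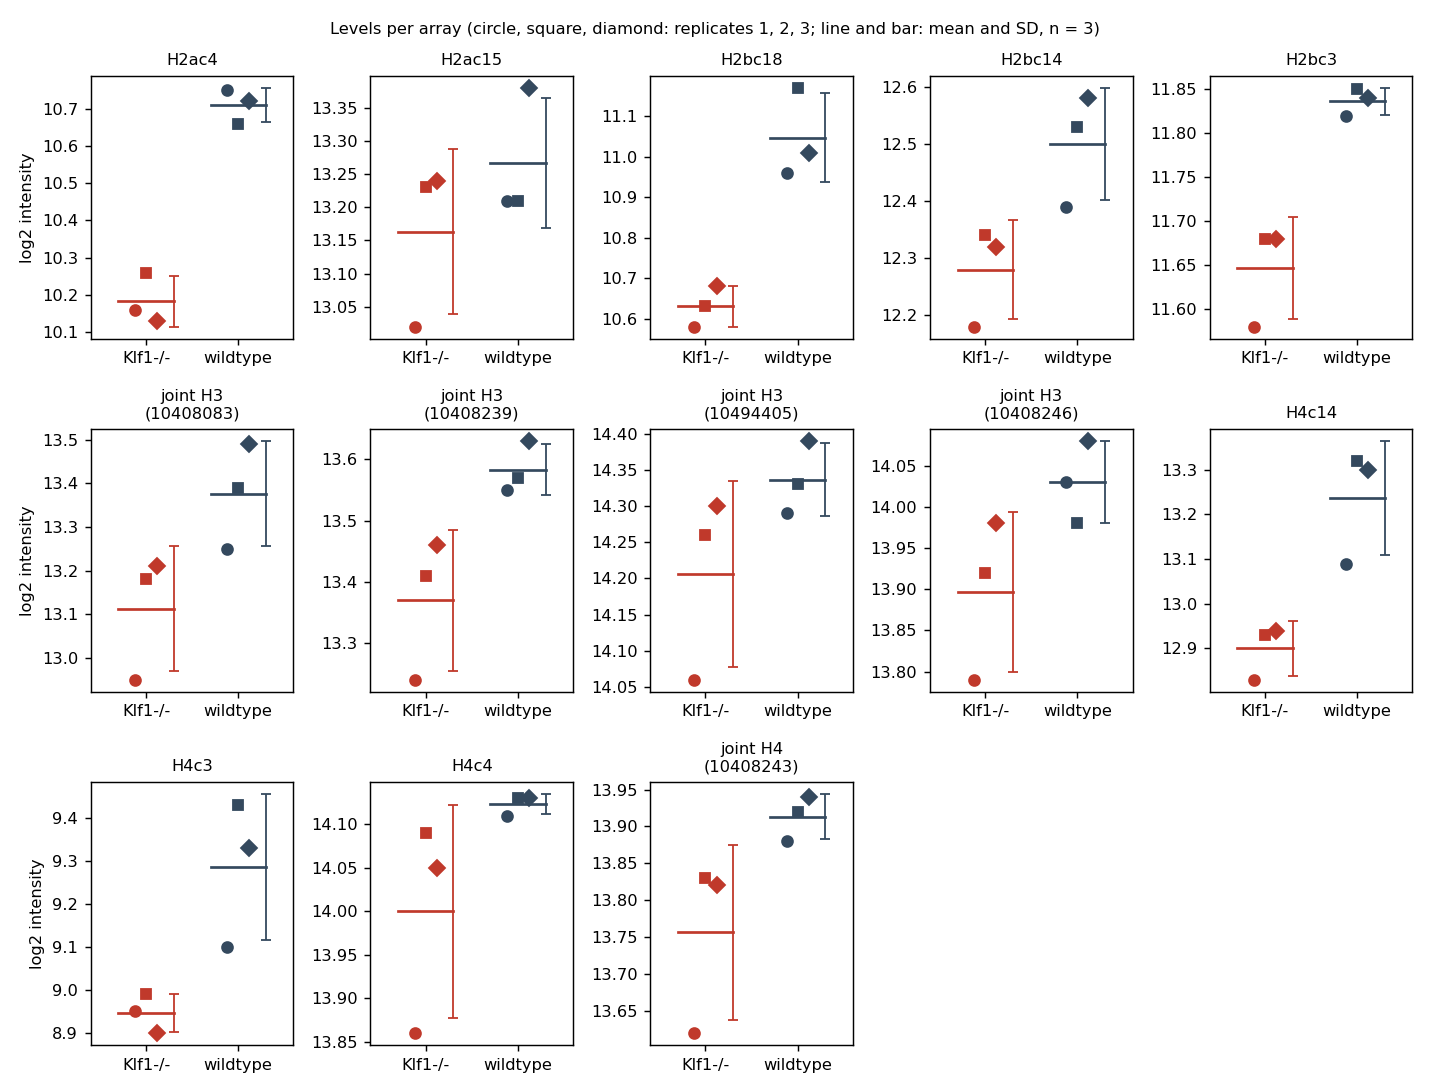
Log2 intensity of the 13 members chosen by rule, with 1 point per array, Klf1-/- on the left and wildtype on the right of each panel; circle, square and diamond are replicates 1, 2 and 3, the line is the mean and the bar the SD (n = 3). H2ac4 and H2bc18 show the clear gap between groups, and Klf1-/- replicate 1 (circle) is the low point in most panels; each panel has its own axis, which does not start at 0.

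H3 and H4 form the core of the nucleosome and carry many of the marks written on chromatin. H3 was read mostly by 9 joint sets that share the symbols H3c1, H3c2, H3c3, H3c4, H3c6, H3c7, H3c8, H3c10, H3c11, H3c13, H3c14 and H3c15. None of the 12 H3 sets was called. Their median change was -0.14 and the smallest limma adjusted p was 0.16. The median was -0.07 after quantile normalization, -0.09 without Klf1-/- replicate 1 and -0.01 over the 3 sets that name 1 gene. At an unadjusted p under 0.05, 3 of them were lower and 0 higher.

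The joint H3 set with that smallest p, 10408083, read 12.95, 13.18 and 13.21 in Klf1-/- livers, against 13.25, 13.39 and 13.49 in wildtype livers. The next, 10408239, read 13.24, 13.41 and 13.46 in Klf1-/- livers, against 13.55, 13.57 and 13.63 in wildtype livers. Both had groups apart, with changes of -0.26 ± 0.10 and -0.21 ± 0.08 (limma adjusted p = 0.16 and 0.167). The brightest member of all, the joint H3 set 10494405, read 14.06, 14.26 and 14.30 in Klf1-/- livers, against 14.29, 14.33 and 14.39 in wildtype livers. There Klf1-/- replicate 3 lay just above the lowest wildtype array, and the change was -0.13 (95% interval -0.34 to 0.08, limma adjusted p = 0.386). The joint H3 set 10408246, next in level among the joint H3 sets and level with 10408202 at 13.96, read 13.79, 13.92 and 13.98 in Klf1-/- livers, against 14.03, 13.98 and 14.08 in wildtype livers, with a change of -0.13 (limma adjusted p = 0.332) and groups that touch at this rounding.

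Of the 9 joint H3 sets, 7 had a mean level of 12 or more. All 7 had a negative change, between -0.26 and -0.13, and 6 of them had groups apart. The other two, 10494402 at a level of 10.40 and 10403941 at 5.65, differed by -0.02 and 0.62. The same genes are named for all 9, and levels of different probe sets are not comparable. The 3 single-gene sets, H3c15, H3c7 and H3c4, lay at levels of 6.92, 4.21 and 6.70, with changes of -0.53, -0.01 and 0.03 and limma adjusted p of 0.424 or more.

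H4 had 11 probe sets, and all 11 changes were negative, between -0.43 and -0.13 with a median of -0.18. The groups were apart in 9 of them, and 0 were called; at an unadjusted p under 0.05, 4 were lower. The H4 sets supplied most of the calls that other settings added: 3 were called lower with probe sets under the median level left out or with 1 probe set per gene, 2 with the probe sets that name a gene or with 75th percentile centring, and 1 with a trended and robust variance, with array weights or with probe sets under the 25th percentile left out. H4c14, the H4 gene of the Hist2 cluster, read 12.83, 12.93 and 12.94 in Klf1-/- livers, against 13.09, 13.32 and 13.30 in wildtype livers. Its change was -0.34 ± 0.09 (95% interval -0.55 to -0.13), with a limma adjusted p of 0.06. H4c3 read 8.95, 8.99 and 8.90 in Klf1-/- livers, against 9.10, 9.43 and 9.33 in wildtype livers, with a change of -0.34 ± 0.10 (limma adjusted p = 0.0825). In both genes, wildtype replicate 1 was the lowest wildtype array. Without it both were called lower, H4c14 at -0.41 (limma adjusted p = 0.0391) and H4c3 at -0.43 (0.0366).

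H4c4 and a joint set were the brightest H4 sets. H4c4 read 13.86, 14.09 and 14.05 in Klf1-/- livers, against 14.11, 14.13 and 14.13 in wildtype livers. The joint set 10408243, which names H4c1, H4c2, H4c3, H4c4, H4c6, H4c8, H4c9, H4c11, H4c12, H4c17 and H4c18, read 13.62, 13.83 and 13.82 in Klf1-/- livers, against 13.88, 13.92 and 13.94 in wildtype livers. In both, the wildtype arrays lay within 0.06 of each other and Klf1-/- replicate 1 lay well below the other Klf1-/- arrays. The changes were -0.13 (95% interval -0.33 to 0.07, limma adjusted p = 0.388) and -0.16 (limma adjusted p = 0.277). The other 3 joint sets with these 11 symbols differed by -0.25 to -0.14, and H4c6, H4c8 and H4c9 by -0.27, -0.18 and -0.17, with 0 of these 6 called.

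Many members are among the brightest probe sets of the array, with a median level of 10.69 against 6.74 for all probe sets. At a mean level of 12 or more, a limit chosen after the values were seen, all 14 members had negative changes, between -0.34 and -0.10, with a median of -0.17, which was -0.11 after quantile normalization or without Klf1-/- replicate 1. The median over all 739 probe sets that bright was 0.02. Groups were apart in the lower direction in 12 of these 14, against 20.3% of the 739. Of the 14, 7 were joint H3 sets that name the same 12 genes, and others were joint H4 sets, so the 14 are not independent. By limma, 0 of the 14 were called lower, against 8.25% of the 739, and 0 higher, against 4.06%; at an unadjusted p under 0.05, 5 of the 14 were lower. Spread between replicates was like that of the array: the median SD of the members was 0.09 in Klf1-/- and 0.1 in wildtype livers, against 0.1 and 0.12 over all probe sets.

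**Figure D3:**
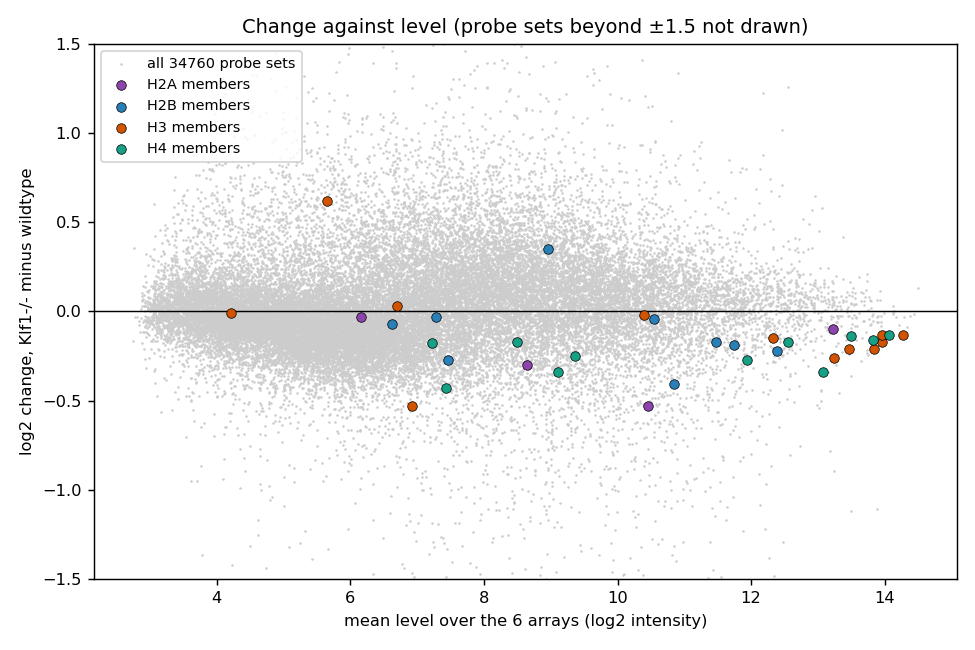
Log2 change, Klf1-/- minus wildtype, against the mean log2 level over the 6 arrays, with members coloured by class over the 34760 probe sets in grey. Probe sets whose change lies beyond the axis are not drawn. The bright members lie in a band just below 0, between -0.34 and -0.10 above a level of 12, and the members furthest above 0 lie at levels under 9.

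The clusters were compared through the single-gene sets. The 18 of the Hist1 cluster, on chromosome 13, had a median change of -0.15 with 1 called, H2ac4. The 4 of the Hist2 cluster, on chromosome 3, were H2bc18, H2bc21, H3c15 and H4c14. All 4 were negative, with a median of -0.38, and 1, H2bc18, was called. The groups of H3c15 overlapped, with wildtype replicate 1 at 8.17 and the other wildtype arrays at 6.62 and 6.75. Without wildtype replicate 1 the Hist2 median was -0.32 and the Hist1 median -0.13. Without wildtype replicate 2 they were -0.32 and -0.18. The difference between clusters was not tested.

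The arrays of a group were not alike in the 36 sets. Klf1-/- replicate 1 was the lowest of the 6 arrays in 23 of 36 members, and replicates 2 and 3 in 3 and 4. Outside the histone sets it was also the lowest Klf1-/- array in the sum of the 10 housekeeping genes. Those sums were 48671, 52916 and 52374 in Klf1-/- livers, against 50506, 50397 and 47627 in wildtype livers. The upper quartile of all probe sets was 8.62, 8.69 and 8.71 in Klf1-/- livers, against 8.62, 8.61 and 8.65 in wildtype livers. The median of the 9 joint H3 sets was 13.24, 13.41 and 13.46 in Klf1-/- livers, against 13.55, 13.57 and 13.63 in wildtype livers. The median of all 36 members was 10.63, 10.58 and 10.57 in Klf1-/- livers, against 10.86, 10.91 and 10.86 in wildtype livers, with no overlap. Without Klf1-/- replicate 1 the median change of the members was -0.13, 32 were negative and 22 had groups apart. Leaving out any other array gave medians between -0.20 and -0.17, 29 to 35 negative changes and 23 or 24 sets apart. With 2 arrays in a group, between 18.7 and 24% of all probe sets were apart in that direction.

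Another array stood out in a few sets, at mean levels of 5.65 to 8.96, where the median level of all probe sets was 6.74. Wildtype replicate 1 lay more than 0.5 above both other wildtype arrays in 5 members, or 13.9%, against 0.831% of all probe sets; this gap and these members were chosen after the values were seen. H3c15 read 6.55, 6.78 and 6.63 in Klf1-/- livers, against 8.17, 6.62 and 6.75 in wildtype livers. H3c4 read 6.45, 6.97 and 6.73 in Klf1-/- livers, against 7.79, 6.23 and 6.02 in wildtype livers. H2bc8 read 9.10, 9.20 and 9.10 in Klf1-/- livers, against 9.79, 8.55 and 8.02 in wildtype livers. In all 3 genes wildtype replicate 1 lay above every Klf1-/- array, and the other wildtype arrays lay among or below them.

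The remaining 2 were the H4c17/H4c11 set, with a gap of 0.79, and the dim joint H3 set 10403941, with a gap of 1.11. Without wildtype replicate 1, H2bc8 was called higher, by 0.85 (limma adjusted p = 0.0349), against 0.35 with a 95% interval of -0.59 to 1.30 on all arrays. Without wildtype replicate 3, H2bc8 differed by -0.03 and H3c4 by -0.30, against 0.03 for H3c4 on all arrays, and neither was called. The direction for these 2 genes thus depended on single arrays.

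**Figure D4:**
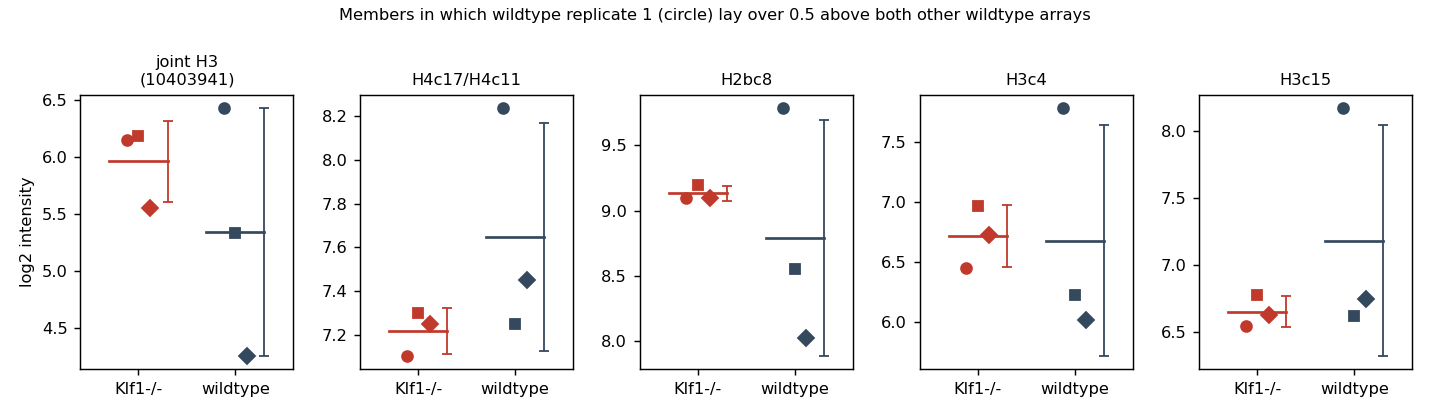
Log2 intensity per array of the 5 members in which wildtype replicate 1 (circle) lay over 0.5 above both other wildtype arrays, Klf1-/- left and wildtype right, with mean and SD (n = 3). The wildtype points span 0.99 or more in each panel while the Klf1-/- points of 4 of the panels lie within 0.52; the axes differ and do not start at 0.

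Probe sets whose present symbols fall outside the rule, but whose older names meet it, were added after their values were seen. They are H2aw (older Hist3h2a), H2bu2 and H2bu1-ps (Hist3h2ba and Hist3h2bb), H4f16 (Hist4h4) and 6 joint H2B sets that include Hist1h2br, which the platform calls H4bc24. With them, 5 of 46 were called lower, or 10.9%, against 4.52% of all probe sets, and 0 higher, while the median stayed at -0.17. H2aw, an H2A gene on chromosome 11, read 12.38, 12.59 and 12.54 in Klf1-/- livers, against 12.94, 12.87 and 12.96 in wildtype livers. Its groups were apart and it fell by 0.42 (limma adjusted p = 0.023). One of the 6 joint H2B sets, 10408070, read 12.07, 11.98 and 12.01 in Klf1-/- livers, against 12.40, 12.60 and 12.44 in wildtype livers, and fell by 0.46 (limma adjusted p = 0.015).

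H4f16, an H4 gene on chromosome 6, read 11.34, 11.45 and 11.34 in Klf1-/- livers, against 11.74, 11.73 and 11.63 in wildtype livers, and fell by 0.33 (limma adjusted p = 0.0397). These 3 calls rest on all arrays. H2aw was called without Klf1-/- replicate 2 and lost without any other array (limma adjusted p between 0.0581 and 0.0743), H4f16 was lost without any 1 array (up to 0.143), and the joint set was lost without Klf1-/- replicate 2 or 3 (0.0657 and 0.0653). The other 5 joint H2B sets, bright at levels of 11.42 to 13.33, differed by -0.15 to 0.06 and overlapped. A further joint set names many H2A genes, H2ac4, H2ac8 and H2ac15 among them, with H2ax and H3c4, and went the other way. It read 9.91, 10.01 and 9.99 in Klf1-/- livers, against 9.70, 9.83 and 9.47 in wildtype livers. Its groups were apart in the higher direction, and its change of 0.30 was not called (limma adjusted p = 0.127).

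Genes that act with the core histones are given with 1 probe set each, the brightest that names the gene alone; 4.94% of 19937 such genes were called lower and 6.91% higher. Linker histones bind the DNA between nucleosomes, and many of their genes lie in the same clusters. Of 8 measured, 2 were called lower and 0 higher, with a median change of -0.25. That median includes the dim sets of H1f8 and H1f6, at levels of 4.56 and 5.31, which differed by -0.28 and -0.32 and were not called. H1f5 averaged 12.30 ± 0.06 in Klf1-/- livers and 12.79 ± 0.03 in wildtype livers (SD, n = 3 each) and fell by 0.49 (limma adjusted p = 0.0066). H1f2 averaged 10.48 ± 0.06 in Klf1-/- livers and 10.93 ± 0.09 in wildtype livers and fell by 0.45 (limma adjusted p = 0.0162). H1f2 was no longer called without Klf1-/- replicate 1 or 3 (limma adjusted p = 0.0543 and 0.0694). Of the 9 replacement variants measured by a set of their own, 0 were called, 1 was lower and 1 higher at an unadjusted p under 0.05, and the median change was 0.02. H3f3a is among them only through a dim set, at a level of 4.97, and H3f3b had no set of its own. The joint sets of H3f3a and its pseudogene were called lower and those of H3f3b were not called, as given under other observations. Macroh2a1, a large H2A variant of silent chromatin, differed by 0.29, and H2aj, an H2A variant, by -0.28 (limma adjusted p = 0.062 and 0.0646).

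The genes that make and process histone transcripts showed 1 call of 20 measured, lower, and 0 higher, with a median change of -0.03; at an unadjusted p under 0.05, 3 were lower and 3 higher. It was Slbp, which binds the stem-loop of these transcripts. Slbp read 10.34, 10.29 and 10.26 in Klf1-/- livers, against 11.06, 10.95 and 10.83 in wildtype livers, with no overlap. Slbp fell by 0.65 ± 0.08 (95% interval -0.85 to -0.45, limma adjusted p = 0.00409), and was called with any 1 array left out. Npat, the coactivator of histone gene transcription at the histone locus body, is in this list and was not called.

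Cyclin E with Cdk2 phosphorylates Npat at the start of S phase. Of the 7 cyclin and kinase genes 2 were called lower and 0 higher. Ccne2 averaged 9.46 ± 0.05 in Klf1-/- livers and 10.46 ± 0.36 in wildtype livers (SD, n = 3 each) and fell by 1.0 ± 0.17 (limma adjusted p = 0.0127). Ccne1 averaged 11.31 ± 0.07 in Klf1-/- livers and 11.64 ± 0.04 in wildtype livers and fell by 0.32 ± 0.07 (limma adjusted p = 0.0379). The call of Ccne2 was lost without Klf1-/- replicate 3 (limma adjusted p = 0.0521) and that of Ccne1 without any 1 array (0.0631 to 0.129).

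Histone chaperones carry new histones to DNA. Of 24 genes, 4 were called lower and 0 higher, with a median change of -0.06. They were Anp32b, which fell by 0.48, Chaf1b, a subunit of the CAF-1 complex that deposits H3 and H4 behind the fork, by 0.42, Supt16, a subunit of the FACT complex, by 0.34, and Asf1b, which hands on H3 and H4, by 0.31 (limma adjusted p = 0.01, 0.0229, 0.0373 and 0.0462). Anp32b was called with any 1 array left out; of this list 1 gene was called lower without any 1 of the Klf1-/- arrays or wildtype replicate 1 or 2.

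S-phase genes showed 9 calls of 27, all lower, with a median change of -0.17, which was -0.11 without Klf1-/- replicate 1. Their summed intensity was 49852, 54029 and 54160 in Klf1-/- livers, against 65680, 65934 and 61172 in wildtype livers, with Klf1-/- replicate 1 again the lowest. E2f2, an E2F factor abundant in erythroid cells, fell by 2.54, Rrm2, a subunit of ribonucleotide reductase, by 0.67, E2f1 by 0.59 and Lig1, the replicative DNA ligase, by 0.55 (limma adjusted p = 2.65e-05, 0.00638, 0.0196 and 0.00806). The number called lower was 4, 3 and 3 without Klf1-/- replicates 1, 2 and 3, and 5, 3 and 7 without wildtype replicates 1, 2 and 3. E2f1 was not called without Klf1-/- replicate 2 or 3 or wildtype replicate 2 (limma adjusted p = 0.0762, 0.0782 and 0.0647).

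**Figure D5:**
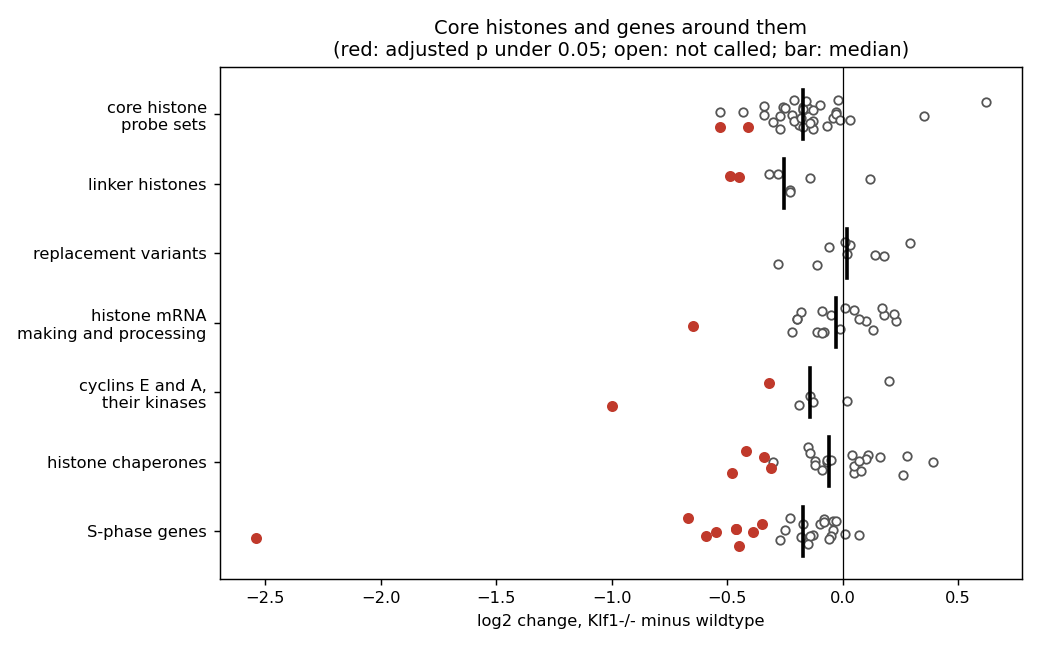
Log2 change, Klf1-/- minus wildtype, of the 36 core histone probe sets and of the genes of 6 related lists, 1 point per probe set or gene; red points passed the test, open points did not, and the bar is the median. Called points of these lists all lie below 0, and the medians are -0.17 for core histones, -0.25 for linker histones, 0.02 for replacement variants and -0.17 for S-phase genes. Among the replacement variants H3f3a is drawn from its own dim set, and the joint H3f3a and H3f3b sets are not drawn. The linker histones include the dim sets of H1f6 and H1f8.

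The cell type markers of the same livers moved as well. Besides the erythroid genes, 6 of 7 megakaryocyte markers were called higher, with summed intensities of 19379 to 25323 in Klf1-/- livers and 15017 to 15814 in wildtype livers. That count was 1 without Klf1-/- replicate 2, 3 without wildtype replicate 2, 4 without Klf1-/- replicate 3 or wildtype replicate 1 or 3, and 7 without Klf1-/- replicate 1. Of 10 macrophage markers 4 were called lower (3672 to 4162 in Klf1-/- livers and 4925 to 6035 in wildtype livers), and of 10 granulocyte markers 2 were called higher (7314 to 9220 in Klf1-/- livers and 5770 to 6420 in wildtype livers). The macrophage count was 2 without Klf1-/- replicate 1 or 3 or wildtype replicate 2 or 3. The granulocyte count was 0 without Klf1-/- replicate 2 or 3 and 1 without any other array. None of the 8 endothelial or 8 mesenchymal markers was called by limma; at an unadjusted p under 0.05, 1 and 2 were lower and 2 and 0 higher. Of 7 lymphoid markers 1 was called higher, with sums of 438 to 463 in Klf1-/- livers and 402 to 432 in wildtype livers. It was Il7r, which differed by 0.71 (limma adjusted p = 0.0053). The lymphoid markers did not move as a group, as 4 of the 7 changes were negative. At an unadjusted p under 0.05, 2 of them were lower and 1 higher. The part of these cell types in the levels of the core histone probe sets was not tested.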

How the data were processed

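The authors deposited 1 table of probe set intensities from 6 Affymetrix Mouse Gene arrays. Per the submitters' processing notes, RMA and Affymetrix Power Tools 1.8.6 were used. RMA corrects background and equalises the arrays, so a shift in total RNA cannot be seen. Neither the genome build nor the annotation is named in the sources used here. Log2 was taken; nothing was filtered. The labels do not say whether embryos shared a litter, so the p-values reflect only how much these 6 embryos varied.

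The groups were compared in R 4.3.3 with limma 3.58.1 (lmFit, then eBayes), in a 2-sided test with no covariate, which was tested on simulated data. The number of arrays limits the precision. Symbols came from the platform table; older names came from the gene table. Of the listed genes of histone transcript processing, Pou2f1 was not measured by a set of its own. The listed name Zfp100 was left out, because the gene table gives it as a synonym of another gene. The members and lists were chosen with earlier results of these data known.

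Members named in full were, per class, the called sets or the 2 with the smallest p, and the 2 brightest; from other lists, up to 4 called genes with the largest change, or the 2 with the smallest p. Other members, Npat, and the sets added through older names were named after their values were seen. Alternatives were other normalizations, filters on dim sets, variance models, a replicate block, a stricter threshold and leaving out each array.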

Additional observations from a re-analysis of the deposited data

How the results depend on the processing

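The 36 member probe sets with 2 lower and 0 higher calls were recomputed under each alternative. The lower count was 4 when arrays were centred on the 75th percentile, 5 when probe sets under the median level were left out (31 members), 4 with the probe sets that name a gene, 5 with 1 probe set per gene (22 members), 1 at an adjusted p under 0.01, 1 with the replicate block and 5 of 46 when sets with older names were added. The higher count was 0 in all of these. Leaving out 1 array gave 1 to 4 lower and 0 to 1 higher calls. The 4 lower and 1 higher came without wildtype replicate 1, and the count of 1 lower came without Klf1-/- replicate 1, 2 or 3 or wildtype replicate 2. The filters and the single-gene tables test fewer probe sets; for the rest the cause was not tested. H2ac4 was called in every fit at the 0.05 threshold, and H2bc18 in all of these but the replicate block (limma adjusted p = 0.0559) and 4 of the fits with 1 array left out.

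The median change of the members was -0.17, and it was -0.13 after quantile normalization, -0.22 after either centring (75th percentile, housekeeping genes), and -0.20 to -0.13 with 1 array left out, lowest in size without Klf1-/- replicate 1. Both centrings moved the median of all probe sets to -0.06, so the members lay 0.16 below it on either scale, as in the values reported. Of the 10 housekeeping genes used for centring, 1 was itself called higher and 0 lower. It was Pgk1, which differed by 0.88 (limma adjusted p = 0.00249), and its part in that centring was not tested. Of the 36 members, 7 turned sign under some setting, H2ac8, H2bc4, H2bc8, H2bc22, H3c4, H3c7 and the joint H3 set 10494402; none of these was called as reported or where its sign turned. Over all probe sets 1980 were called higher and 1570 lower, against 1456 and 1785 with 75th percentile centring and 1380 and 1684 with housekeeping centring. The Klf1 change lay between -1.56 and -1.39 with 1 array left out.

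Same-numbered arrays had correlations of -0.007, -0.127 and 0.19 between their deviations over all probe sets. Differently numbered arrays had correlations between -0.214 and 0.24. With 3 arrays a group, each taken from its group mean, these values cannot settle whether the numbers pair the samples. With the replicate block 1436 probe sets were called higher and 1160 lower.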

Other observations

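The H3.3 genes code for the replacement form of H3 that is laid down outside S phase too, and their probe sets, named after their values were seen, did not read alike. All 4 joint sets of H3f3a and its pseudogene Gm12657 were called lower, where 4.52% of all probe sets were. They read 11.98 ± 0.07, 11.19 ± 0.07, 11.88 ± 0.07 and 11.72 ± 0.09 in Klf1-/- livers, against 12.55 ± 0.09, 11.81 ± 0.04, 12.46 ± 0.01 and 12.45 ± 0.06 in wildtype livers (SD, n = 3 each). Their changes were -0.58, -0.62, -0.58 and -0.72 (limma adjusted p = 0.00602, 0.00304, 0.00341 and 0.00205), and all 4 were called with any 1 array left out. The joint sets of H3f3b with Gm6485 read 12.08 ± 0.05 and 12.19 ± 0.10 in Klf1-/- livers, against 12.05 ± 0.05 and 12.13 ± 0.02 in wildtype livers, with changes of 0.03 and 0.07 that were not called (limma adjusted p = 0.797 and 0.63). The set that names H3f3a alone was dim, at a mean level of 4.97, and differed by 0.14 (limma adjusted p = 0.386). The joint sets cannot tell gene from pseudogene, and the difference between H3f3a and H3f3b was not tested.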
